A study of Mus musculus with 18 samples.

Results

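Transcripts of 10 apolipoprotein genes were measured by RNA-seq in the liver of RepB-/- and WT mice. The genes were chosen by name (Apoa1, Apoa2, Apoa4, Apoa5, Apob, Apoc1, Apoc3, Apoe, Apoh and Apom), and all 10 were found among the 51826 genes of the liver table and among the 21959 genes of the table for primary mouse embryonic fibroblasts (MEFs). The mice were of the ICR stock, and in RepB-/- animals repeat B of Xist, a cytosine-rich part of the RNA that silences the inactive X chromosome, had been deleted with a pair of Cas9 guides in zygotes and bred on as a whole-body deletion, which WT animals do not carry. Liver gave 3 RepB-/- and 3 WT libraries, as did MEFs, which the labels also assign to tail. The labels give neither age nor sex of the liver donors, although the study writes RepB-/- for females and RepB-/Y for males. Nor do they say whether the replicates 1, 2 and 3 came from separate animals. The p-values therefore measure the spread between these libraries, which may be partly technical. In liver it was not technical alone, as RepB-/- 2 held Y-linked counts and the libraries numbered 1 held fetal liver transcripts (both given below).

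Apolipoproteins are the protein coat of lipoproteins, the particles that carry triglycerides and cholesterol through blood. Hepatocytes secrete very-low-density lipoproteins built around Apob, while Apoa1 and Apoa2 form the frame of high-density lipoproteins. The exchangeable apolipoproteins move between particles and set how fast they are lipolysed or cleared, through lipases and receptors on the cells they meet. In the liver many of these genes are driven by nuclear receptors such as Hnf4a.

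Apoa1, Apoc3, Apoa4 and Apoa5 lie side by side within 43340 bp on chromosome 9 (chr9:46228580-46271919, GRCm38, the build of the liver table), Apoc3 on the minus strand and the other 3 on the plus strand. Apoc1 (chr7:19689481-19692660) and Apoe (chr7:19696109-19699188) lie within 9708 bp of each other, both on the minus strand. Apoa2 (chr1:171225054-171226379), Apob (chr12:7977648-8016835), Apoh (chr11:108343354-108414396) and Apom (chr17:35128997-35132050) stand alone. All 10 are annotated as protein-coding, with the longest coding sequences running from 88 codons in Apoc1 to 4505 in Apob.

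The promoters of 8 of the 10 genes, all but Apoc1 and Apoc3, were matched in RefSeq (GRCm38.p6), with 12 start sites in all. Those of the chromosome 9 group are shown because the levels of these neighbours differed in opposite directions between libraries (described further on for replicate 1). Each stretch is the 250 bases before a transcription start on the plus strand, at chr9:46228380-46228629 for Apoa1, chr9:46240594-46240843 for Apoa4 and chr9:46268358-46268607 for Apoa5. In Apoa5 the capitals mark the core promoter motif TATAAA, and in Apoa4 they mark CAAAGTTCA, a variant of the element bound by Hnf4a.
Apoa1: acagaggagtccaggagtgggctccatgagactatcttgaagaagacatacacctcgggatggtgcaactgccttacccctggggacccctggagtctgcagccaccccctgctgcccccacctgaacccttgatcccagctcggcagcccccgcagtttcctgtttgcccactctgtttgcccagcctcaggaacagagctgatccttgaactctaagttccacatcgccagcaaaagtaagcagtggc
Apoa4: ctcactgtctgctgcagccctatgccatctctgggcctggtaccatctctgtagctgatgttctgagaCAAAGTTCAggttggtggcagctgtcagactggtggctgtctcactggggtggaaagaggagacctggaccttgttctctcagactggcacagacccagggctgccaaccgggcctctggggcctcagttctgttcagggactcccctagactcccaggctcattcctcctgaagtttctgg
Apoa5: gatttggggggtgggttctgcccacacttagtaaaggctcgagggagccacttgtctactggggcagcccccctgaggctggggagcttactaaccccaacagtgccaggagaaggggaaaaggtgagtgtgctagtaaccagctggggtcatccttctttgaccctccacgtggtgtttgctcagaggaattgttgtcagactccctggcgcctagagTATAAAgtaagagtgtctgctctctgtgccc

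Of the 4 motifs searched on both strands, none was found in the 250 bases before Apoa1. TATAAA was found 31 bases before the Apoa5 start and in 5 of the 12 windows, against 12.4% of the 32851 promoters of all genes. The 5 windows belong to 4 genes, as the 2 Apoa5 windows overlap and share 1 match, so no enrichment is read from the count. Position was not part of the search, and the match began 212 bases before the start in Apoa2 and 100 in Apoe. The Apoa4 match began 182 bases before its RefSeq start, and that motif was held by 0.335% of all promoters. The RefSeq starts were 46240844 for Apoa4 and 46228630 for Apoa1. In the liver annotation these genes begin at 46240696 and 46228580, inside the stretches shown. Distances between gene starts given further on use the liver annotation. CAAAGTCCA, the usual form of the Hnf4a element, was in 0 of the 12 windows and 0.384% of all promoters. AGGTCA, the half-site of many nuclear receptors, was in 2 of the 12, those of Apoa2 and Apoh, and in 14.0% of all promoters. The motifs do not overlap, except that TATAAA occurs on both strands over 1 stretch before Apoe. CAAAGTTCA was searched after the sequences had been read, and a match is a description, not a binding site.

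Liver libraries held between 37682201 and 51542709 counts and MEF libraries between 11540344 and 20587556. Hepatocyte markers such as Alb summed to between 147219 and 225395 normalised CPM (counts scaled to a common library size with TMM factors) in liver. The libraries numbered 1 stood apart in both genotypes. The 9 genes of a fetal liver list (Afp, H19, Igf2 and others) summed to 6268 CPM in RepB-/- 1 and 4986 in WT 1 but to between 14.4 and 335 in the other 4. Cyp3a16, a gene of this list, did not follow the number. It was at 275, 2.42 and 87.7 CPM in RepB-/- 1, 2 and 3 and at 210, 325 and 228 in WT. It made up most of the list's sums in WT 2 (335) and WT 3 (234). Xist, the targeted gene, had between 14494 and 26345 counts in 5 liver libraries and 4 in RepB-/- 2, which alone held Y-linked counts, 4342 over 4 genes, and which thus goes against its label as a RepB-/- library. The counts cover the whole of Xist and do not show repeat B, and Xist is not listed in the MEF table. Genotype differences of members are therefore also given without the library labelled RepB-/- 2, and for Apoa1 and Apoa4 with a term for replicate 1. In bulk liver, fewer cells of a type and less RNA per cell cannot be told apart.

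The 10 genes together took 4.59%, 3.61% and 2.44% of the counts in RepB-/- 1, 2 and 3 and 4.02%, 2.91% and 3.41% in WT 1, 2 and 3. On the per-length scale of the deposited TPM (counts scaled by transcript length and library), Apoe, Apoa1 and Apoa2 held the first 3 places among the members in each liver library. Their TPM medians over the 6 libraries were 16732, 15887 and 15568, and their order changed from library to library, so these 3 levels did not differ beyond their spread. Apoc1 followed at a TPM median of 5008, then Apoh at 2846 and Apoc3 at 2451. Apoh exceeded Apoc3 in TPM in 2 of 6 libraries only. The lowest TPM medians were those of Apom at 621, Apob at 552.5, Apoa5 at 402 and Apoa4 at 368, which likewise traded places.

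**Figure D1:**
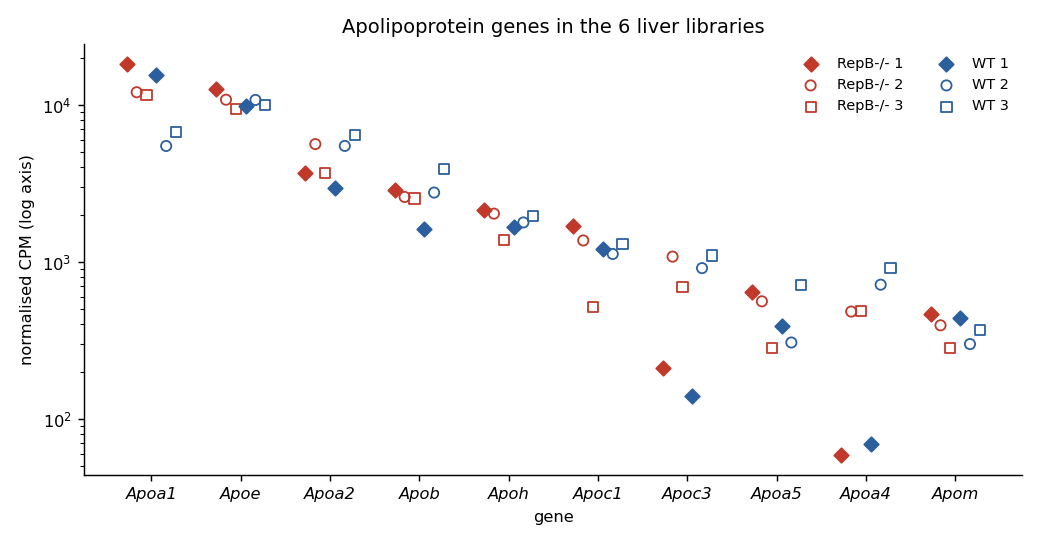
Normalised CPM (log axis) of the 10 apolipoprotein genes in each liver library, RepB-/- in red and WT in blue, with filled diamonds for the libraries numbered 1, open circles for 2 and open squares for 3. The filled diamonds of Apoa4 (58.7 and 68.8 CPM) and Apoc3 (211 and 140.3 CPM) lie far below the open symbols, while those of Apoa1 lie above them. CPM is not scaled for gene length, so levels should be compared within a gene.

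The question of the series, whether loss of repeat B changes expression, was asked of the members in liver. None of the 10 was called different between RepB-/- and WT by edgeR's quasi-likelihood test (adjusted p = 1.00 for each, Benjamini-Hochberg over the 16080 genes tested), and none had an unadjusted p under 0.05. Of all genes tested, 0.0373% were called and 3.12% had an unadjusted p under 0.05. DESeq2 likewise called 0 of 10 (0.425% of the genes it tested), as did edgeR with the replicate number as a block (0.0498%) or with a term for replicate 1 (0.056%). The libraries of the genotypes overlapped for all 10 genes, where 3.38% of all genes had every RepB-/- library above WT and 4.66% had every one below. The members' median log2 difference was 0.0044, against 0.012 over all genes.

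Apoa1, the main protein of high-density lipoproteins, was at 18315, 12027 and 11591 CPM in RepB-/- 1, 2 and 3 and at 15524, 5469.9 and 6703 in WT 1, 2 and 3. It was higher in RepB-/- within each replicate number, but WT 1 exceeded both RepB-/- 2 and RepB-/- 3. The log2 difference was 0.60 (SE 0.57, edgeR adjusted p = 1.00), 0.69 without RepB-/- 2 and 0.72 (SE 0.29) with a term for replicate 1, where the edgeR adjusted p was 0.612. With another library left out it was 1.20 without WT 1 (edgeR adjusted p = 0.654) but 0.34 without WT 2, 0.36 without RepB-/- 1 and 0.42 without WT 3. Apoa2, the second protein of these particles, was at 3689, 5625 and 3684 CPM in RepB-/- and 2969, 5476 and 6441 in WT, a log2 difference of -0.20 (SE 0.45), or -0.43 without the library labelled RepB-/- 2. The ranges of Apoa2 overlapped throughout.

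Apoa4, an apolipoprotein of chylomicrons and high-density lipoproteins, ranged most of all the members. It was at 58.7, 483 and 485 CPM in RepB-/- and at 68.8, 716 and 919 in WT. Within each replicate number RepB-/- was the lower, yet the 2 libraries numbered 1 were far below the rest whatever their genotype. The log2 difference was -0.73 (SE 1.04, edgeR adjusted p = 1.00), -1.07 without RepB-/- 2 and -0.58 (SE 0.21) with a term for replicate 1, where the edgeR adjusted p was 0.586. Leaving out WT 1 gave -1.25, and leaving out WT 3 gave -0.20.

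Apoa5, which helps lipoprotein lipase to clear triglycerides, was at 647, 561 and 283 CPM in RepB-/- and 388, 307 and 709 in WT (log2 difference 0.09, SE 0.46). Without RepB-/- 2 the sign changed, to -0.014. Its lowest and its highest value both came from libraries numbered 3, of opposite genotype. Antisense genes that overlap Apoa4 and Apoa5 had at most 92 counts in any library, against at least 2975 for Apoa4.

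Apoc3, an inhibitor of triglyceride clearance, was at 211, 1080.2 and 691 CPM in RepB-/- and 140.3, 913 and 1099.7 in WT (log2 difference -0.12, SE 0.85). Without RepB-/- 2, its second highest library, the difference was -0.67. As in Apoa4, the low values were those of the libraries numbered 1. Apoc1, which slows the uptake of lipoproteins by their receptors, was at 1693, 1369 and 519 CPM in RepB-/- and 1209, 1123 and 1298 in WT (log2 difference -0.02, SE 0.47). RepB-/- 3 alone was low for Apoc1, and the difference was 0.35 without it, against -0.13 without RepB-/- 2.

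Apoe, the ligand by which remnant particles are taken up by receptors, varied least. It was at 12579, 10781 and 9413 CPM in RepB-/- and 9771, 10745 and 9989.9 in WT (log2 difference 0.10, SE 0.40, or 0.11 without RepB-/- 2). Its neighbour Apoc1 spanned a wider range in the same libraries. Apob, the structural protein of very-low-density lipoproteins, was at 2861, 2591 and 2533 CPM in RepB-/- and 1612, 2763 and 3925 in WT (log2 difference -0.06, SE 0.42, or -0.041 without RepB-/- 2). The 3 WT values enclosed those of RepB-/-.

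Apoh, beta-2-glycoprotein I, binds anionic phospholipids in plasma. It was at 2129, 2029 and 1371 CPM in RepB-/- and 1676, 1783 and 1962 in WT (log2 difference 0.03, SE 0.33, or -0.050 without RepB-/- 2). Prkca overlaps Apoh on the opposite strand with between 491 and 840 counts, against at least 47020 for Apoh. Apom, the carrier of sphingosine-1-phosphate on high-density lipoproteins, was at 468, 395 and 284 CPM in RepB-/- and 442, 299.7 and 367 in WT (log2 difference 0.05, SE 0.31, or 0.023 without RepB-/- 2). Both Apoh and Apom were lowest in RepB-/- 3.

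**Figure D2:**
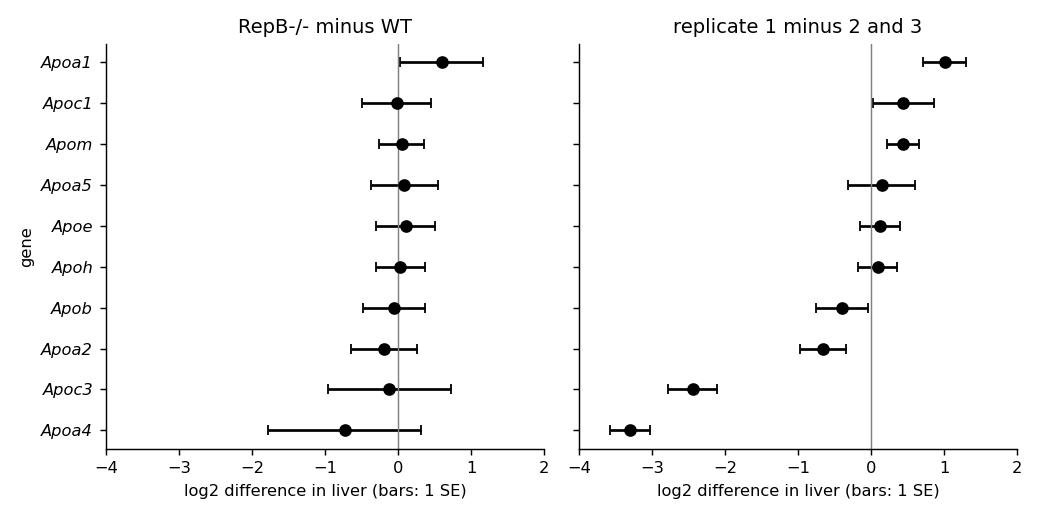
Log2 differences of the 10 genes in liver with bars of 1 standard error, RepB-/- minus WT on the left and replicate 1 minus replicates 2 and 3, with genotype in the fit, on the right. On the left none was called, and on the right Apoa4 (-3.30) and Apoc3 (-2.44) lie far to the left and Apoa1 (1.01) to the right.

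The spread among liver replicates was wide, with a biological coefficient of variation of 51.2%. With the replicate number as a block it was 33.7%. The standard errors of the genotype differences ran from 0.31 for Apom to 1.04 for Apoa4 on the log2 scale, so a p above the threshold does not show that the genotypes had equal levels.

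The libraries numbered 1 were then compared with those numbered 2 and 3, as a description without a test, because the comparison was chosen with results of these data known and the labels do not say what the number stands for. Both libraries numbered 1 lay outside the range of the other 4 for 4 of the 10 members, Apoa1 and Apom above it and Apoa4 and Apoc3 below it. Of all genes tested, 44.3% lay outside in this way, so the count is no more than the background, and it is the sizes that set Apoa4 and Apoc3 apart. The members' median log2 difference was 0.10, against -0.0030 over all genes.

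Apoa4 had a mean of 63.7 CPM in the libraries numbered 1 and of 651 CPM in the other 4, where the lowest value was 483. The fitted log2 difference was -3.30 (SE 0.27), a 9.84-fold lower level, and it was -3.04 among RepB-/- libraries alone and -3.56 among WT libraries alone. Only 1.47% of all genes were lower in replicate 1 by as much without overlap. Apoc3 had a mean of 176 CPM in the libraries numbered 1 and of 946 CPM in the others, with a fitted log2 difference of -2.44 (SE 0.34), a 5.42-fold lower level. It was -2.04 among RepB-/- and -2.84 among WT libraries, and 2.24% of all genes were lower by as much.

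Apoa1, whose start lies 7.06 kb from that of Apoc3 and 12.1 kb from that of Apoa4, went the other way. It had a mean of 16919 CPM in the libraries numbered 1 and 8948 in the others, a log2 difference of 1.01 (SE 0.29), although 12.3% of all genes were above the other 4 libraries by as much. The size leaned on WT, being 0.63 among RepB-/- and 1.36 among WT libraries. Apoa5, 40.1 kb from Apoa1, had a log2 difference of 0.14 (SE 0.46), and its libraries overlapped.

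**Figure D3:**
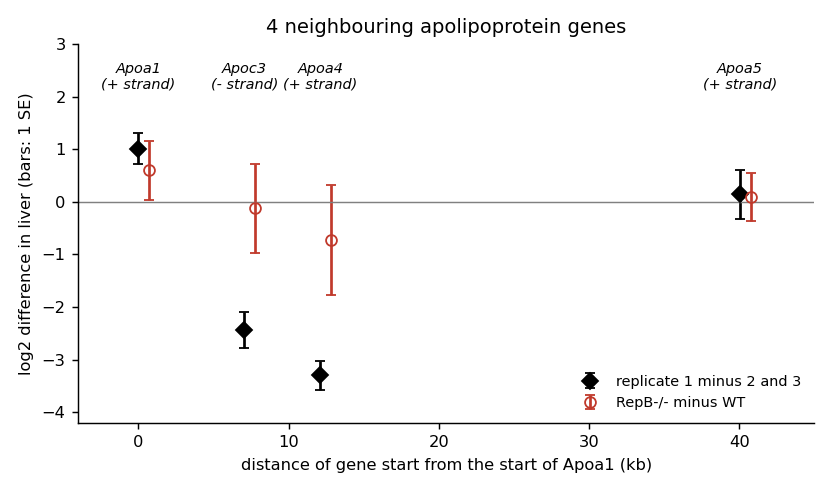
The 4 neighbouring genes of chromosome 9 by the distance of their starts from that of Apoa1 (kb, horizontal axis) and their log2 differences in liver (vertical axis, bars of 1 standard error). Filled diamonds show replicate 1 minus replicates 2 and 3, at 1.01 for Apoa1, -2.44 for Apoc3, -3.30 for Apoa4 and 0.14 for Apoa5, and open circles show RepB-/- minus WT, where none was called.

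Apom was at a mean of 455 CPM in the libraries numbered 1 and 336 in the others (log2 difference 0.44, SE 0.22), above all 4 by a small margin, 442 against 395. Apoa2 was lower by 0.66 on the log2 scale (SE 0.32), but RepB-/- 1 at 3689 CPM lay just above RepB-/- 3 at 3684. Apoc1 differed by 0.44 (SE 0.42), Apob by -0.40 (SE 0.36), Apoe by 0.12 (SE 0.27) and Apoh by 0.09 (SE 0.27), all with overlap. For Apob the sign differed between the genotypes, 0.16 among RepB-/- and -1.03 among WT libraries, and the difference between them was not tested. The replicates 2 and 3 of a genotype also differed from each other, by 1.40 on the log2 scale for Apoc1 in RepB-/- and by -1.21 for Apoa5 in WT.

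Other markers moved with the replicate number beside Apoa4 and Apoc3. Of the 6 fetal liver genes that could be tested, 5 were above the other 4 libraries in both libraries numbered 1 and 0 were below. Cyp3a16 overlapped, and Lin28b was at 0 throughout. Afp, a fetal plasma protein, was at 507 and 369 CPM against at most 6.04. Of the 10 mature hepatocyte genes, 8 were below, and the sum of the 10 was 6568 CPM in RepB-/- 1 and 5220.1 in WT 1, against between 9183 and 12989. Hsd17b13 overlapped, and Pck1 leaned the other way with overlap, at 3172 and 1816 CPM against between 461 and 1923. Of 9 tested genes of the general hepatocyte list 1 was above and 3 were below, beside 23% and 21.3% of all genes. All 8 testable lymphocyte and granulocyte genes were above, with sums of 369 CPM in RepB-/- 1 and 57.4 in WT 1 against between 17.1 and 20.2. Of fibroblast genes 7 of 10 were above, of endothelial genes 5 of 7, of stellate cell genes 3 of 7, of cholangiocyte genes 2 of 5, and of Kupffer cell and macrophage genes 2 of 10, with 0 below in each list, where 23% of all genes were above and 21.3% below. The Kupffer cell count is under that share and the stellate cell and cholangiocyte counts rest on few genes. Erythroid sums were 4524 CPM in RepB-/- 1 and 1625 in WT 1 against between 258 and 2249. Within each number they were higher in RepB-/- (4524 against 1625, 2249 against 312 and 1394 against 258), with a median log2 difference of 1.93 over 9 tested genes, of which edgeR called 0 (2 had an unadjusted p under 0.05) and, with the replicate block, called 1 higher. Small intestine, the other main source of Apoa4 and Apoc3, had 3 of its 6 markers, Alpi, Cdx1 and Cdx2, at 0 in each liver library. Of the other 3, Fabp2 was at 40.6 to 63.5 CPM, Vil1 at most 0.77 CPM, and Lct had counts in WT 3 alone. The part of these markers in the members' levels was not tested.

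**Figure D4:**
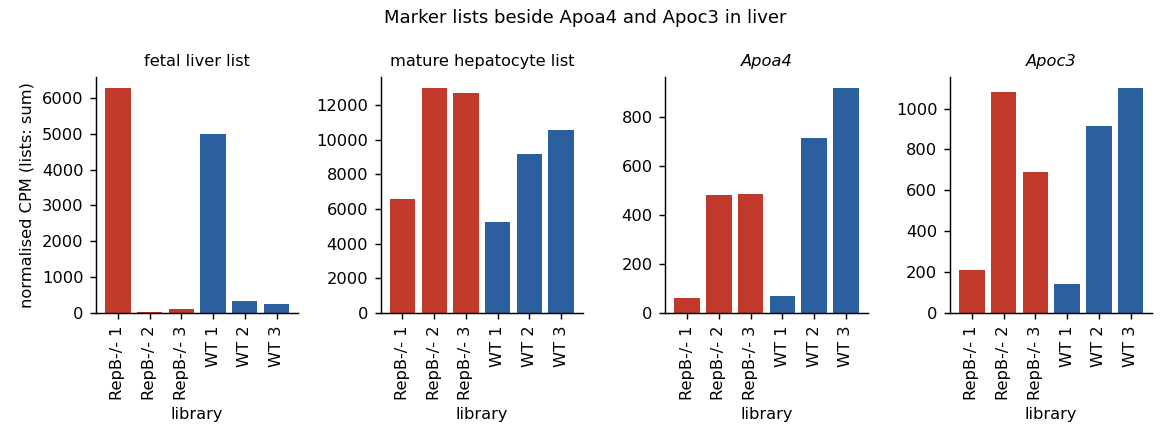
Summed normalised CPM of the fetal liver and mature hepatocyte lists beside the normalised CPM of Apoa4 and Apoc3 in each liver library, RepB-/- in red and WT in blue, all axes starting at 0. The libraries numbered 1 hold 6268 and 4986 CPM of the fetal list and the lowest bars in the other 3 panels.

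The deposited units disagreed for Apob. As plain CPM of the library total, Apob stood at 3081, 2531 and 2006 in RepB-/- 1, 2 and 3 and 1917, 2715 and 4009 in WT 1, 2 and 3. As TPM it stood at 393, 686 and 456 in RepB-/- and 596, 725 and 509 in WT. RepB-/- 1 and WT 3, the highest in CPM, were thus the lowest and the third lowest in TPM. The ratio of the units was 7.84 and 7.88 in these 2 libraries and between 3.22 and 4.40 in the other 4. It varied 2.45-fold for Apob, between 1.15-fold and 1.19-fold for the other 9 members, and 1.16-fold at the median of 3195 well-counted genes, of which 0.282% varied more than Apob. Among the other members, Apoa5 had its highest ratios in the same 2 libraries, by a smaller margin. They were 1.42 in RepB-/- 1 and in WT 3, against between 1.20 and 1.26 in the other 4. These were also the libraries with the highest CPM of Apoa5. Annotated Apob transcripts run from 1118 to 13934 bp, and which lengths the authors used is not given in the sources used here.

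**Figure D5:**
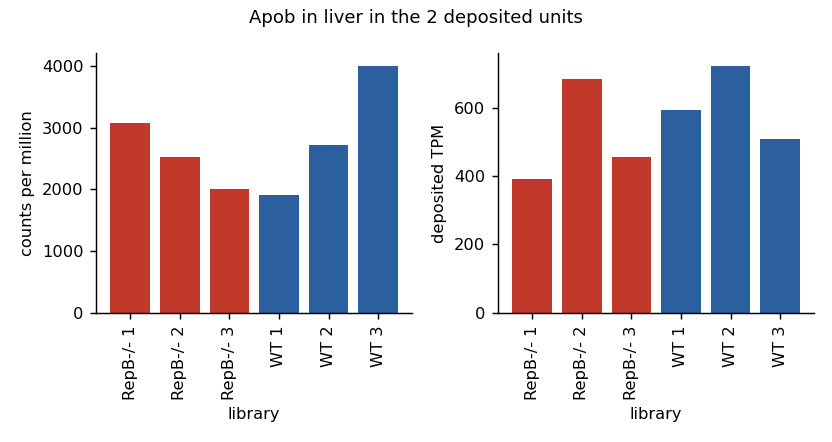
Apob in each liver library as CPM of the library total (left) and as deposited TPM (right), RepB-/- in red and WT in blue. The order of the libraries differs between the panels, with WT 3 highest on the left at 4009 and WT 2 highest on the right at 725.

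The partners of the members in lipoprotein metabolism were counted from lists. Of 36 tested genes of the lipoprotein pathway 0 were called between genotypes in liver (0.0373% of all genes, edgeR). So were 0 of 27 regulators of apolipoprotein genes and 0 of 15 other apolipoprotein and related genes. In these lists 2, 2 and 0 genes had an unadjusted edgeR p under 0.05. DESeq2 also called 0 of the pathway genes. The medians were 0.023, 0.037 and 0.031 on the log2 scale. Mttp, which loads lipid onto Apob, differed by -0.13 (SE 0.24), and Lcat, which esterifies the cholesterol of Apoa1 particles, by 0.16 (SE 0.28). The receptor Scarb1 differed by 0.55 (SE 0.27) and the lipase Lipc by -0.14 (SE 0.27).

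The largest differences between genotypes in the pathway list were those of Angptl8, an inhibitor of lipoprotein lipase, the sorting receptor Sort1 and the receptor Vldlr. Angptl8 was at 49.0, 23.5 and 16.2 CPM in RepB-/- and 82.0, 75.5 and 70.2 in WT, without overlap (log2 difference -1.36, SE 0.41, edgeR adjusted p = 1.00). Sort1 differed by 1.30 (SE 0.78), with overlap. Vldlr differed by -1.29 (SE 0.41), without overlap, at most 6.79 CPM in RepB-/- and at least 7.16 in WT. Among the regulators they were Nr1d1, a nuclear receptor of the clock, at 2.13 (SE 0.96), Cebpb at 1.26 (SE 0.34) and Ppard at -0.92 (SE 0.57). Nr1d1 rested on RepB-/- 3, with 82.7 CPM against between 4.65 and 11.2 in the other 5. Cebpb did not overlap, with at least 144 CPM in RepB-/- and at most 105 in WT. Of all genes tested, 3.38% had every RepB-/- library above WT and 4.66% had every one below. The genes named here were picked for their large differences, so their lack of overlap is no support for a difference.

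In the libraries numbered 1, 8 of the 36 pathway genes lay above the other 4 libraries and 9 below, beside 23% and 21.3% of all genes. Of the 27 regulators 1 lay above and 15 below, with a median log2 difference of -0.48. Hnf4a was at 362 and 343 CPM in RepB-/- 1 and WT 1 and at least 549.7 in the others (log2 difference -0.80). Mlxipl, a carbohydrate-responsive factor, was at 54.2 and 76.9 CPM against at least 256 (-2.16), and Ppard differed by -1.45. Cebpa, a hepatocyte factor, was low in RepB-/- 1 alone at 22.6 CPM, with 261 in WT 1 and at least 276 in the other 4.

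Lpl, lipoprotein lipase, differed most in the pathway list, with 489 and 558 CPM in RepB-/- 1 and WT 1 against between 26.3 and 154 in the others (log2 difference 3.27). Lipg, endothelial lipase, differed by -3.03, with 2.57 and 0.647 CPM against at least 6.71. Lpl thus stood opposite to Apoc3 and Apoa4, and Lipg on their side. Mttp (-0.29), Lipc (-0.35) and Scarb1 (0.43) overlapped, and Lcat (-0.32) was below in both.

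The genes whose levels followed a member most closely over the 6 liver libraries were found by the mean absolute difference of their log2 deviations, among genes with at least 10 CPM. For Apoa4 these included Gpt2, Hmgcs1, Adh4 and Gstm6, with mean differences of 0.24 to 0.28, and for Apoc3 1810008I18Rik, Rnd1, Hopx, Pmvk and Tm7sf2, with 0.11 to 0.17. Gpt2 was at 27.8 and 26.3 CPM in RepB-/- 1 and WT 1 and at least 191 in the others. For Apoa1 they were F2r, Gltp, Prcp, Ttyh3 and Rasa3 (0.10 to 0.13), and for the mean of the 10 members Mxd4, Oaz1, Tkt, Ormdl2 and Mib2 (0.045 to 0.075). The libraries share their depth and their replicate number, so the likeness is a description.

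In MEFs, cultured connective tissue cells, the members other than Apoe were close to absent. The levels are set beside those of liver without a test because the tables differ in build and annotation. The 10 genes together took between 0.00141% and 0.00336% of MEF counts. Apoe was the highest, with 349, 287 and 277 counts in RepB-/- 1, 2 and 3 and 344, 343 and 366 in WT. Apoh had between 8 and 18 counts and Apob between 4 and 8. Apoa4, Apoa5 and Apoc3 had 0 counts in each MEF library. A count of 0 allows up to 3 counts, by counting error alone.

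Between MEF genotypes 3 of the 10 members passed the filter on low counts, and 2 were called lower in RepB-/-, Apoe and Apom, where 39.1% of the 13306 genes tested were called and 19.7% were called lower, and every RepB-/- library lay below WT for 25.8%. Apoe was at 17.8, 14.8 and 14.0 CPM in RepB-/- and 27.6, 21.2 and 21.7 in WT, without overlap. It fell by 0.59 on the log2 scale (SE 0.13, edgeR adjusted p = 0.00281). Apom had 7, 2 and 2 counts in RepB-/- and 16, 18 and 9 in WT, also without overlap. It fell by 2.31 on the log2 scale (SE 0.60, edgeR adjusted p = 0.00766), at counts near the limit of 3 in RepB-/-. Apom passed the filter only through its WT libraries, so its call is no support for a difference. Apoh differed by -0.27 (SE 0.45, edgeR adjusted p = 0.664).

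Apoa1 had 0, 0 and 0 counts in RepB-/- MEFs and 5, 3 and 3 in WT, and did not pass the filter. DESeq2, which tested it, called it lower as well as Apoe and Apom, beside 31.4% of all genes called. Apoa1 entered that test only through its WT libraries, at counts near the limit of 3, so its call is no support for a difference. With the replicate number as a block edgeR called the 2 genes Apoe and Apom, beside 37.6% of all genes. Apoc1 had 0, 0 and 0 against 2, 0 and 1 counts, and Apoa2 1, 1 and 0 against 0, 4 and 5. WT MEF libraries, although less deep, held a count on 17191 to 17664 genes, against 15453 to 15545 in RepB-/-. The part of this difference in the low counts of Apom and Apoa1 was not tested.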

How the data were processed

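RNA-seq libraries of liver and MEFs were analysed, 3 RepB-/- and 3 WT of each, with genotype and replicate number read from the titles (B as RepB-/-, W as WT). Libraries of brain were left out, being not analysed here. Per their methods, the authors used Cutadapt for trimming and Hisat2 for alignment, while the submitters' processing notes name Trim Galore 0.4.1, STAR 2.7.0, HTSeq 0.12.4, DESeq2 and deepTools 3.5.0. The methods describe stranded mRNA libraries, and which tool made which table is not given in the sources used here. Whole-number counts per gene were deposited for both tissues (GRCm38 coordinates in liver, GRCm39 in MEFs). The authors also deposited TPM for liver, used for order within liver and 1 alternative, and FPKM for MEFs, which served only to check the units. Another 6 per-library columns were not used.

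Counts were tested with edgeR 4.0.16 (TMM, filterByExpr, quasi-likelihood, two-sided, Benjamini-Hochberg, threshold 0.05) in R 4.3.3, each tissue by itself over all its genes. Standard errors were the log2 difference over the square root of F. Alternatives were DESeq2 1.42.0, its size factors, library totals, no filter on low counts, a replicate block, a term for replicate 1, that term without RepB-/- 2, each library left out, and, added after seeing the data, log2(TPM + 1) with limma 3.58.1. Replicate numbers were checked for pairing by correlating deviations from genotype means across genes. In liver the correlations were 0.71, 0.36 and 0.37 for numbers 1, 2 and 3. Deviations within a genotype cancel out, so a shift shared by the libraries numbered 1 also raises the correlations of numbers 2 and 3. The values show a shift shared by the libraries numbered 1, and cannot show whether numbers 2 and 3 pair. The fit was tested on simulated counts with a single coefficient of variation for all genes. In liver it called 0 of 98 genes changed 2-fold and 13 of 99 changed 4-fold. With a term for replicate 1 it called 8 of 96 and 80 of 96. In MEFs it called 92 of 97 genes changed 2-fold. The liver test could thus miss changes of these sizes. Figures used Python 3.11.15 and matplotlib 3.10.9.

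The members and lists were chosen with earlier results of these data known. Named were all members, Apoc2, Apoc4, Mttp, Lipc, Lcat, Scarb1, Hnf4a, the 3 pathway and 3 regulator genes with the largest difference in each liver comparison (mean of at least 1 CPM) and the 5 genes most like the members, except that some genes this rule names are not reported here. Lists held 19 other apolipoprotein and related genes, 39 pathway genes, 27 regulators and markers of cell types.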

Additional observations from a re-analysis of the deposited data

How the results depend on the processing

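In liver, 0 members were called under each alternative run, and 0 pathway genes under each one but log2(TPM + 1), for which they were not counted. The replicate block changed no call of either. The members' median genotype difference of 0.0044 ranged from -0.098 to 0.21 (log2) with 1 library left out, and was -0.25 by log2(TPM + 1). Differences near 0 changed sign. Under the replicate block Apob was 0.032 and Apoc3 0.056, and with a term for replicate 1 they were 0.014 and 0.072. With that term and without RepB-/- 2, Apoa5 was -0.14, Apob 0.14, Apoh -0.10 and Apom -0.10. By TPM, Apoa5 was -0.091, Apoe -0.16, Apoh -0.27 and Apom -0.22. With 1 library left out, Apoa1 ranged from 0.34 to 1.20, Apoa2 from -0.46 to 0.036, Apoa5 from -0.14 to 0.52, Apob from -0.33 to 0.28, Apoc1 from -0.35 to 0.35, Apoc3 from -0.67 to 0.32, Apoe from -0.0072 to 0.21, Apoh from -0.084 to 0.21 and Apom from -0.12 to 0.23. The cause was not tested. The counts of all liver genes called did depend on the tool, at 6 by edgeR and 80 by DESeq2.

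For replicate 1, Apoa1 and Apom lay above and Apoa4 and Apoc3 below under each scaling, subset and left-out library. The number of members outside the other libraries was 4 in the main fit, beside 44.3% of all genes. It was 5 by DESeq2 size factors (44.4% of all genes), 6 by library totals (44.9%) and 6 by TPM (42.8%). Among RepB-/- libraries alone it was 9 and among WT libraries alone 8. There the shares were 74.8% and 84.1% of all genes, since 1 library is set against 2. With 1 library left out the number ranged from 5 to 7, beside 48.8% to 59.8% of all genes. It was 7 without WT 1 (59.8%) and 6 without RepB-/- 1 (58.2%). The median of 0.10 became 0.36 by library totals and 0.41 by TPM, where the median of all genes moved to 0.26 and 0.22, leaving 0.097 and 0.20 relative to it. It was -0.21 among WT libraries alone and ranged from -0.28 (without RepB-/- 1) to 0.32 (without WT 1) with 1 library left out. Apoa1 ranged from 0.63 to 1.35 and Apoa4 from -3.57 to -3.04.

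In MEFs, Apoe and Apom had an adjusted p under 0.05 under each alternative, which for Apom, in the test only through its WT counts, is no sign of stability. DESeq2 and the fit without a filter called 3 members, the third being Apoa1. It had counts in WT libraries alone, so this call too is no support for a difference. Apoh ranged from -0.48 to 0.029, the last without RepB-/- 3. MEF replicate numbers did not pair (correlations -0.011, -0.042 and -0.0035), and the block called the same number of members, 2.

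Each member had at least 2975 counts in each liver library, so that counting error was small beside the coefficient of variation of 51.2% between replicates. The part of age, sex or batch in the replicate number was not tested.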

Other observations

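Apoc2 and Apoc4, neighbours of Apoe and Apoc1 on chromosome 7, are also expressed in hepatocytes. Apoc4 was at 547, 467 and 229 CPM in RepB-/- 1, 2 and 3 and at 451, 410.4 and 537 in WT (log2 difference -0.17, SE 0.38). Apoc2, the activator of lipoprotein lipase, had 810, 10850 and 8166 counts in RepB-/- and 11669, 807 and 1292 in WT, a split that followed neither genotype nor replicate number (log2 difference 0.61, SE 1.23). Gm44805, a gene model on the same strand that overlaps both Apoc2 and Apoc4, had 5849, 247 and 95 counts in RepB-/- and 240, 5168 and 4814 in WT. Of the counts of Apoc2 and Gm44805 together, Apoc2 held 12.2%, 97.8% and 98.85% in RepB-/- and 98.0%, 13.5% and 21.2% in WT. The sums of the pair were 6659, 11097 and 8261 in RepB-/- and 11909, 5975 and 6106 in WT, so that the level of Apoc2 is uncertain in these counts. The 3 libraries with a low share of Apoc2 include the 2 libraries in which Apob had a high ratio of CPM to TPM, RepB-/- 1 and WT 3. WT 2 had a low Apoc2 share and an Apob ratio of 3.75.

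Of 15 tested genes of a list of other apolipoprotein and related genes, 1 was above and 7 below in both libraries numbered 1. The median log2 difference of the 15 in liver was -0.78. These 8 of 15 are close to the 44.3% of all genes that lay outside in either direction. By direction they are not, since 23% of all genes were above and 21.3% below, with a median of -0.0030. This lean to lower levels was not tested, and it rests in part on genes that are not apolipoproteins. The list holds Apobec1 and Apobr, which are not apolipoproteins, and Apoo and Apool, which encode mitochondrial proteins. Among the genes below were Apobec1 (-0.71), Apoo (-0.78) and both Apol9a and Apol9b. Examples chosen after their values were seen are Apon, at 163 and 135 CPM in RepB-/- 1 and WT 1 against at least 519 in the other 4, and Apol9b, at 25.0 and 13.0 CPM against at least 189. Apol9b has a close copy, Apol9a, so its counts are uncertain. Apof was above, at 1159 and 1131 CPM against at most 1091.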
